A study of Mus musculus with 9 samples.

Results

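The cytosolic ribosomal proteins are the protein subunits of the ribosomes that translate nuclear messages. Their genes were taken from the count table by name: every symbol that starts with Rpl or Rps and a digit, together with Rplp0, Rplp1, Rplp2 and Rpsa, without symbols that contain "-ps" and without the Rps6k kinases. The rule found 92 genes of 51826 rows. Of these, 77 are core subunits (46 of the large and 31 of the small subunit), and 15 are paralogs, retrogene copies or genes with a look-alike name, such as Rpl22l1 and Rps19bp1. Among the 15, GENCODE vM21 lists Rpl37rt, Rpl6l, Rps12l1, Rps3a2, Rps3a3 and Rps4l as processed pseudogenes without a coding sequence. Each of the 92 rows had a symbol of its own. The rule used names only and no measured value.

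The cells were mouse BMMs, macrophages derived in culture from bone marrow, and their RNA was sequenced in 3 groups of 3 libraries. The control group was untreated, with no culture time or medium given in the labels. The CM group had spent 48 h in medium conditioned by K7M2, a mouse osteosarcoma cell line whose released products such medium carries. The third group (CM plus DTM) had spent 48 h in the same medium together with DTM, an abbreviation that the labels do not spell out. No strain, age, genotype or number of animals is given, and nothing says that the libraries came from separate cultures or animals, so each p-value measures only the spread between libraries. Libraries are named below by group and number, as in CM 1.

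A ribosome needs its subunits in fixed proportion, and cells make them from many unlinked genes whose messages are among the most abundant of a growing cell. Ribosomal protein messages typically begin with a C followed by a run of pyrimidines, the 5′ terminal oligopyrimidine (TOP) motif, through which mTORC1 signalling and the RNA-binding protein Larp1 govern their translation and stability. Macrophages, like other cells, need a steady supply of subunits to keep making protein for growth and secretion.

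The pyrimidine run is shown first because it is the sequence feature that the family is known for. The annotated starts came from RefSeq promoters on GRCm38.p6, in which 57 of the 77 core genes had an entry. Each line holds 30 bases of the sense strand, 10 before the annotated start and 20 from it on, 5′ to 3′. Capitals mark a run of at least 8 C or T bases that overlaps the 10 bases on either side of the start. The set covers both subunits (Rps6, Rps10, Rps18, Rpl15, Rpl27a, Rpl13a, Rplp2), the member with the largest difference among core genes in the results (Rpl39), 2 core genes without a run (Rpsa and Rplp0) and a pair of near copies (Rps27 and its retrogene Rps27rt).
Rps6, chr4:86857348-86857377, minus strand: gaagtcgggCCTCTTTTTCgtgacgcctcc
Rps10, chr17:27635225-27635254, minus strand: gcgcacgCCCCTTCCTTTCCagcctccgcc
Rps18, chr17:33955646-33955675, minus strand: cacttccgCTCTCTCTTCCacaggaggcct
Rpl15, chr14:18270967-18270996, minus strand: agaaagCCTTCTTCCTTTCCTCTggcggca
Rpl27a, chr7:109519185-109519214, plus strand: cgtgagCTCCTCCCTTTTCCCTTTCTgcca
Rpl13a, chr7:45128726-45128755, minus strand: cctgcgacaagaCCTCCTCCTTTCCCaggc
Rplp2, chr7:141447641-141447670, plus strand: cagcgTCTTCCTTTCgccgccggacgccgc
Rpl39, chrX:37085203-37085232, minus strand: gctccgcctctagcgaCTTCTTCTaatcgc
Rpsa, chr9:120127756-120127785, plus strand: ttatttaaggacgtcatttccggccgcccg
Rplp0, chr5:115559457-115559486, plus strand: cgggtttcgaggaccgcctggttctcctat
Rps27, chr3:90213629-90213658, minus strand: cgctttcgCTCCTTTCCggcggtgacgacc
Rps27rt, chr9:114982720-114982749, minus strand: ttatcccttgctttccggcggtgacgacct

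A run was found at 27 of the 57 core genes with an entry (47.4%), against 4259 of 27025 genes in the whole promoter table (15.8%). On the other strand the same search found 4 of the 57 core genes (7.02%) and 17.4% of all genes. Among mitochondrial ribosomal proteins, which are made in the cytosol for a separate ribosome, 9 of 69 genes had a run (13.0%). The search depends on the annotated start, and a missing run says only that these letters were not in the window. The windows of Rps27 and Rps27rt share an unbroken stretch of 19 bases, while Rps27rt has no run of 8.

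The family made up 5.13%, 4.93% and 4.29% of all counts in the control libraries, 3.83%, 3.41% and 3.51% in the CM libraries and 5.73%, 5.17% and 5.78% in the CM plus DTM libraries. The group means were 4.78% ± 0.440, 3.58% ± 0.221 and 5.56% ± 0.340 (SD, n = 3). The groups did not overlap on this scale: every CM library lay below every control library, and every CM plus DTM library lay above all others, by a narrow margin over control 1. Both subunits moved alike. Core large-subunit genes held 2.79% ± 0.231 of counts in control, against 2.15% ± 0.154 in CM and 3.18% ± 0.159 (SD, n = 3) in CM plus DTM. For core small-subunit genes the same groups had 1.94% ± 0.204, 1.39% ± 0.0713 and 2.30% ± 0.177. In bulk RNA, fewer cells of a type and less RNA per cell cannot be told apart.

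A share of all counts also depends on the other genes. The 20 most abundant rows of each library took 14.7% to 17.6% of counts in control, 22.8% to 24.6% in CM and 19.0% to 23.0% in CM plus DTM. After scaling by trimmed mean of M-values (TMM), which sets libraries to a common level over most genes, the family held 4.96%, 4.27% and 3.76% in control, 3.82%, 3.58% and 3.72% in CM and 6.89%, 5.20% and 5.87% in CM plus DTM. On that scale control 3 lay between CM libraries, so control and CM overlapped, while all CM plus DTM libraries remained above all CM and control libraries.

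**Figure D1:**
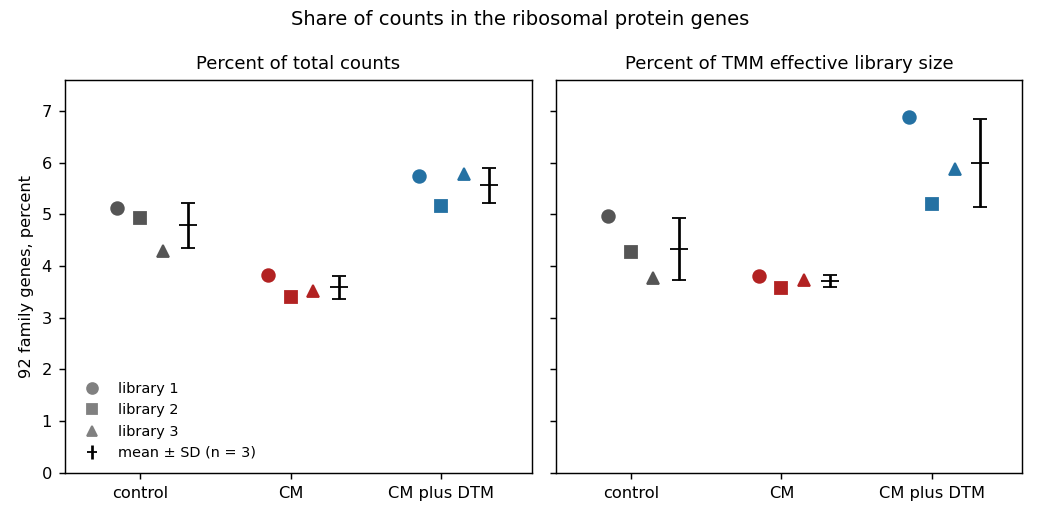
Percent of counts in the 92 ribosomal protein genes, with each library as a point (circle, square and triangle for libraries 1, 2 and 3) and the mean ± SD (n = 3) as a bar. The left panel divides by total counts and shows 3 groups that do not overlap; the right panel divides by the TMM-scaled library size, where control 3 (3.76%) lies among the CM libraries and CM plus DTM 1 (6.89%) is the highest.

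Small-subunit counts per large-subunit count were 0.713, 0.690 and 0.678 in the control libraries, 0.637, 0.666 and 0.646 in CM and 0.747, 0.697 and 0.721 in CM plus DTM. This ratio needs no scaling between libraries. It was lower in every CM library than in every other library, while control and CM plus DTM overlapped. As a description, the balance between subunits was tilted slightly to the large subunit in CM.

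The 9 libraries held 43084296 to 50407973 counts, and within groups no library was a copy of another. CM plus DTM 1 stood apart, with a TMM factor of 0.832 against 0.944 to 1.154 in the other 8 libraries, and earlier results of these data also set CM 1 apart. All 8 macrophage markers were detected, with a summed level of 25591 to 45574 CPM (counts relative to the TMM-scaled library size) in control, 34900 to 36786 in CM and 31133 to 42582 in CM plus DTM. Lyz2 alone averaged 26663, 29326 and 29282 CPM in these groups, so the sum says little of the others. Of the 8, 4 were higher and 2 lower in every CM library than in every control library (background 18.3% and 18.4%). Fcgr1 and Mertk were called higher in CM, by 1.84 and 0.78 (edgeR adjusted p = 0.0485 for both, background 5.61%). With single libraries left out, they were called in 2 and 1 of 9 fits. Neutrophil markers, of which all 8 were detected, summed to 201 to 726 CPM in control, 1.52 to 284 in CM and 352 to 1130 in CM plus DTM. All 10 mesenchymal markers were detected and summed to 806 to 1177 CPM in control, 159 to 799 in CM and 821 to 950 in CM plus DTM. Both of these sums had their lowest libraries in CM, as the family did, and their part in the family's differences was not tested. Of T cell, B cell and erythroid markers, Cd3e, Cd8a and Pax5 were at 0 in every library, and the highest sums were 5.70, 0.143 and 0.352 CPM. The 4 mast cell and basophil markers, of which Fcer1a was at 0, summed to 1.32 to 2.22 CPM in control, 2.15 to 31.1 in CM and 5.13 to 8.68 in CM plus DTM. Among them the basophil protease Mcpt8 was called higher in CM than in control, at 20.8 ± 16.2 against 1.67 ± 0.484 CPM (SD, n = 3; log2 fold change 3.63, edgeR adjusted p = 0.0346, called in 2 of the 9 fits that each left out 1 library), and its part in the family's difference was not tested either. Counts from the mitochondrial genome made up 0.740% to 1.31% of control, 1.15% to 1.77% of CM and 1.16% to 1.77% of CM plus DTM libraries.

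Of the 92 genes, 91 had a count. Rpl10l was at 0 in every library, and Rps12l1 had counts in CM plus DTM 1 only. These 2 failed the filter on low counts, and the other 90, all 77 core subunits among them, were tested with edgeR's quasi-likelihood test. Adjusted p-values are Benjamini-Hochberg values over all 15429 genes tested, and a gene is called below 0.05. Fold changes are log2 values relative to TMM scaling unless another scale is named. Levels given in CPM compare libraries for 1 gene, since they are not divided by gene length.

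Relative to control, CM libraries held slightly less of most ribosomal protein messages. The fold change was below 0 for 81 of the 90 genes and above 0 for 9, with a median of -0.21, against -0.01 over all genes tested. The size rested on single controls, with a median of -0.10 without control 1 and -0.34 without control 3. No member was called, where 5.61% of all genes were, and the lowest adjusted p was 0.125. At an unadjusted p below 0.05, edgeR had 0 members higher and 9 lower, where 12.7% of all genes were higher and 8.76% lower. DESeq2 also called 0 members, where it called 6.67% of its genes higher and 3.32% lower. Limma-voom called 0 as well, beside 3.93% of all genes higher and 1.74% lower. Every CM library was below every control library for 19 members, where 18.4% of all genes showed this, so that share of members is near the background. Without TMM factors, on total counts, the median was -0.40 (all genes -0.21), 48 members were lower in every CM library (background 29.4%), and Rpl10a, Rpl11 and Rps4x were called lower (background 3.01%). Without CM 1 and CM plus DTM 1, 1 member was called lower, where 6.41% of genes were.

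Rps4x, a core small-subunit protein encoded on the X chromosome, measured 1366, 1166 and 980 CPM in control and 833, 862 and 818 CPM in CM. All CM libraries were below all control libraries, by 0.48 on the log2 scale (log2 fold change -0.48, SE 0.17, adjusted p = 0.142). Rpl10a, which forms the L1 stalk at the ribosome's exit for spent tRNAs, measured 631, 540 and 521 CPM in control and 405, 380 and 432 CPM in CM. Its fold change was -0.48 (SE 0.16, adjusted p = 0.125), also with no overlap. Rpl3, a large-subunit protein that reaches toward the peptidyl transferase centre, measured 1084, 908 and 772 CPM in control and 592, 637 and 646 CPM in CM (-0.56, SE 0.20, adjusted p = 0.142). None of these differences passed the threshold. The genes belong to the 19 members that were lower in every CM library, where 18.4% of all genes were too. Lack of overlap therefore does not set them apart.

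The 5 lowest fold changes in CM belonged to Rpl22l1 (-0.87), Rpl39 (-0.65), Rps21 (-0.60), Rps16 (-0.59) and Rpl3 (-0.56). Without control 1 the values of Rpl39, Rps21 and Rps16 were -0.36, -0.29 and -0.36. Rpl22l1, the paralog of Rpl22, measured 33.1, 37.2 and 18.0 CPM in control and 16.6, 19.5 and 12.3 CPM in CM. Its control 3 lay below CM 2, so the groups overlapped. Rps16, a small-subunit protein of the ribosome's head, measured 856, 667 and 453 CPM in control and 504, 418 and 390 in CM. Again control 3 was the low control library and lay under CM 1. Rps21 had the same layout, with 312, 229 and 129 CPM in control against 146, 151 and 143 in CM.

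The 5 highest fold changes were small: Rpl23 at 0.13, Rpl27 at 0.11, Rps4l at 0.09, Rpl41 at 0.07 and Rpl17 at 0.07, among members averaging 5 CPM or more. On total counts all 5 had the opposite sign, at -0.06, -0.09, -0.11, -0.12 and -0.12 in the same order. Only Rpl3l, at less than 1 CPM, was higher in every CM library than in every control library (background 18.3%), and on total counts 0 members were.

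Set against CM, libraries with DTM held more of nearly every ribosomal protein message. The fold change was above 0 for 88 of the 90 genes tested, with a median of 0.76 against -0.03 over all genes tested. Every CM plus DTM library was above every CM library for 76 members, where 16.7% of all genes showed this, and below for 0 members, where 17.8% did. On total counts 70 members were higher in every library (background 15.1%). No member was called by the main test, where 0.0% of all genes were called, since no gene in the table passed. At an unadjusted p below 0.05, 77 members were higher and 0 lower, where 14.3% of all genes were higher and 14.0% lower. Core genes ran from -0.19 to 1.78, with a median of 0.65 for the large and 0.81 for the small subunit. The lowest adjusted p of a member was 0.0611, and 64 members were below 0.1, where 15.6% of all genes were.

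Whether members passed the threshold here depended on the tool, the filter and the libraries. DESeq2 called 62 members higher, where 7.82% of its genes were called higher, and limma-voom called 0 members, where 0.0% of genes were. Keeping only genes with at least 5 CPM in 3 libraries, edgeR called 33 members, where 3.72% of genes were called higher. Without CM plus DTM 2 it called 57, where 7.09% were called higher, and without CM 1 and CM plus DTM 1 together it called 13, where 1.8% were. The settings DESeq2, the 5 CPM filter and the fit without CM plus DTM 2 shared 31 called members, such as Rpl10a, Rpl11, Rpl39, Rps4x, Rps16 and Rps19. Without CM plus DTM 1 alone it called 0, where 0.00634% of genes were called higher, and the median was 0.57.

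**Figure D2:**
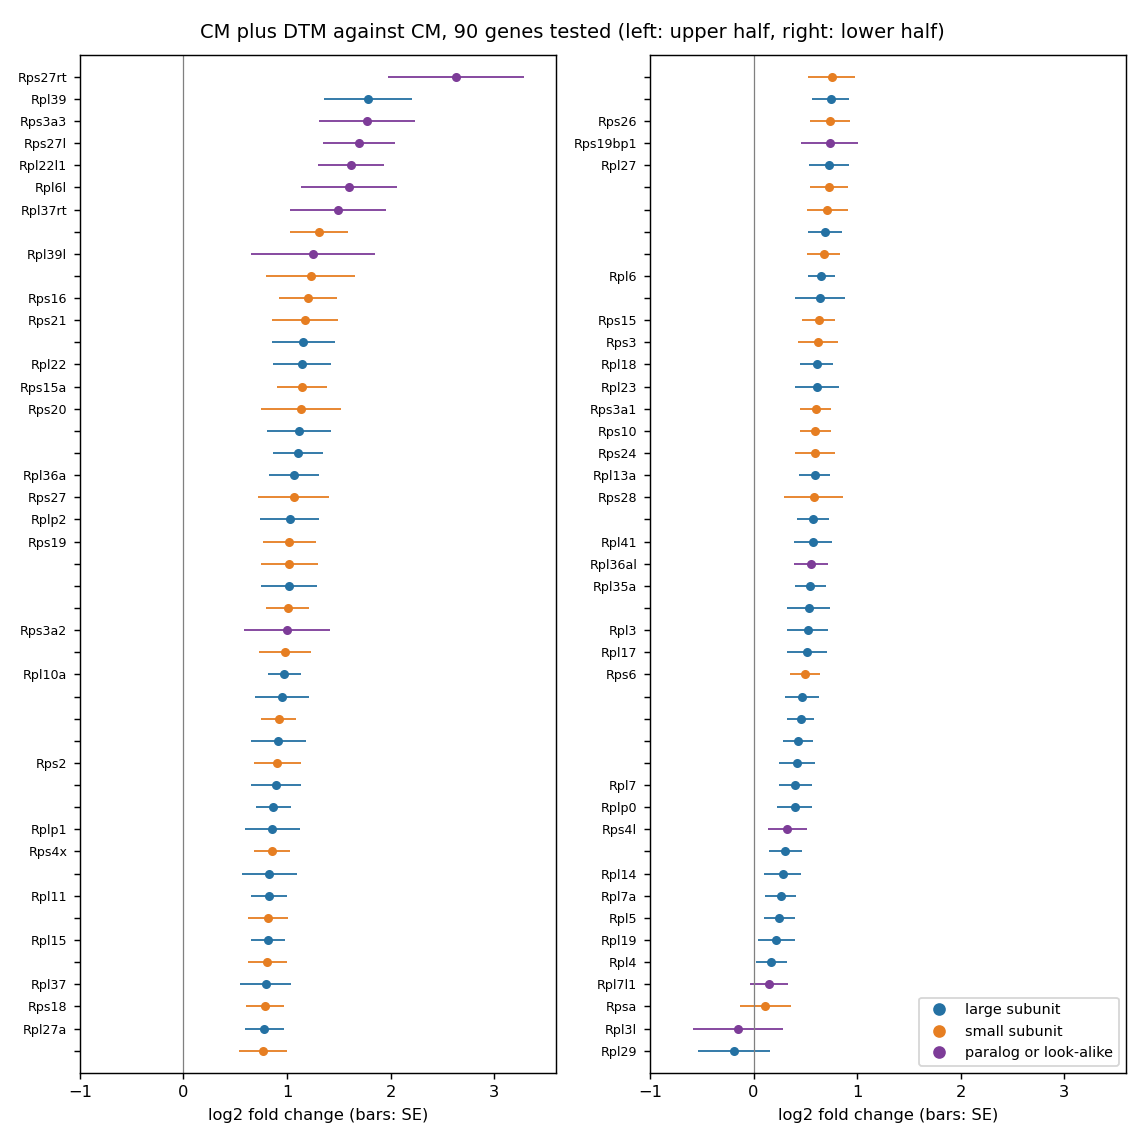
Log2 fold change of CM plus DTM against CM for the 90 ribosomal protein genes tested, ordered by size over both panels, with labels for genes named in the text, bars for the SE and colours for large-subunit, small-subunit and paralog or look-alike genes. Nearly all points lie right of 0, from Rpl29 at -0.19 to Rps27rt at 2.63, and the median is 0.76.

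**Figure D3:**
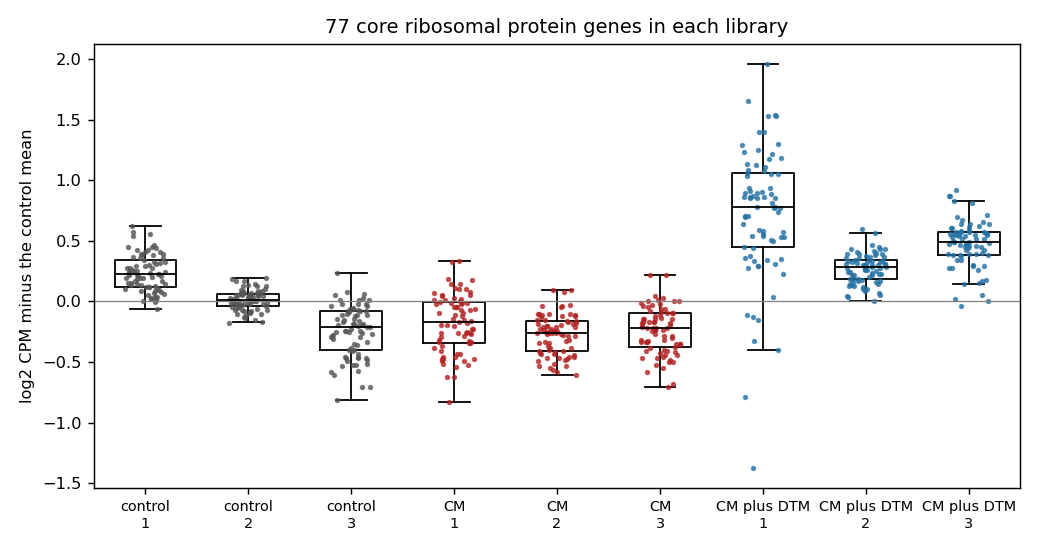
Log2 CPM minus the control mean for the 77 core genes in each of the 9 libraries, with a point per gene and a box for the quartiles. The CM libraries lie slightly below 0 and the CM plus DTM libraries above it, and CM plus DTM 1 has the widest spread, from -1.37 to 1.96.

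Library by library, the median core gene stood at 0.23, 0.01 and -0.21 relative to the control mean in controls 1, 2 and 3. In CM 1, 2 and 3 it was at -0.17, -0.26 and -0.22. In the CM plus DTM libraries it was at 0.78, 0.28 and 0.49. Of the 77 core genes, 19, 3 and 8 were above the control mean in CM 1, 2 and 3, against 70, 77 and 76 in CM plus DTM 1, 2 and 3. CM plus DTM 2 thus had the smallest shift but the most even one, with an interquartile range of 0.161, and CM plus DTM 1 the largest and the least even, with 0.609. Control 3, with 8 core genes above the control mean, was closer to the CM libraries than controls 1 and 2 were.

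Among core subunits the largest difference was at Rpl39, a very small protein that lines the tunnel through which the new peptide leaves. It measured 139, 163 and 134 CPM in CM and 833, 277 and 392 CPM in CM plus DTM, with 312, 241 and 131 CPM in control. All DTM libraries were above all CM libraries, and CM plus DTM 1 was the highest by far. The fold change was 1.78 (SE 0.43, adjusted p = 0.0611), and 1.15 without CM plus DTM 1. Rps16 measured 1320, 754 and 941 CPM in CM plus DTM, above its CM libraries by 1.20 (SE 0.28, adjusted p = 0.0611). Rps21 measured 443, 244 and 308 CPM (fold change 1.17).

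Other members were tighter between libraries. Rps4x measured 1681, 1352 and 1515 CPM in CM plus DTM, a fold change of 0.86 over CM, and Rpl10a measured 914, 696 and 780 CPM, a fold change of 0.97 (SE 0.16, adjusted p = 0.0611). Rpl6, a large-subunit protein, measured 641, 619 and 628 CPM in CM and 1028, 947 and 997 CPM in CM plus DTM (0.65, SE 0.13). For these genes the gap between the groups was wider than the range within either.

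A few subunits did not share the shift. Rpl29, a large-subunit protein also described as heparin-binding, measured 290, 333 and 314 CPM in CM and 121, 384 and 317 CPM in CM plus DTM (-0.19, SE 0.35, adjusted p = 0.755). Its low value came from CM plus DTM 1, and without that library the fold change was 0.12. Rpsa, the small-subunit protein also known as a laminin receptor precursor, measured 1003, 1151 and 1290 CPM in CM and 801, 1541 and 1384 CPM in CM plus DTM (0.11, SE 0.24, adjusted p = 0.797). Here too CM plus DTM 1 was the lowest of the 9 libraries, and the fold change without it was 0.30. Rpl4, which helps form the exit tunnel, measured 1007, 857 and 904 CPM in CM and 941, 1038 and 1142 CPM in CM plus DTM (0.17). Rpl19, which bridges the subunits, measured 862, 624 and 684 CPM against 716, 876 and 935 CPM (0.22). In all, the CM and CM plus DTM groups overlapped for 10 core genes, namely Rpl17, Rpl19, Rpl23, Rpl29, Rpl4, Rpl5, Rpl7a, Rps20, Rps28 and Rpsa, and for 4 paralogs and look-alikes, namely Rpl3l, Rpl7l1, Rps3a2 and Rps4l.

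CM plus DTM also stood above control for most members, though less far. The median fold change was 0.52 against 0.01 over all genes tested, 86 of 90 genes were above 0, and every CM plus DTM library was above every control library for 48 members, where 16.7% of all genes showed this. The control libraries are those used above, so the comparisons are not independent. The main test called 0 members, where 2.45% of all genes were called. At an unadjusted p below 0.05, 56 members were higher and 0 lower, where 14.0% of all genes were higher and 10.3% lower. DESeq2 called 13 members higher (background 5.94%) and limma-voom 0 (background 1.2%). For edgeR the count was 26 without CM plus DTM 2 (background 6.8%), 5 without CM 1 and CM plus DTM 1 (4.07%), 1 with the 5 CPM filter (2.75%), which was Rpl27, and 1 without CM 1 (2.57%), which was Rps2. On total counts the median was 0.27 (all genes -0.24), and 26 members were higher in every library (background 9.18%).

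The lowest adjusted p of this comparison was at Rpl27, a large-subunit protein. It measured 361, 352 and 319 CPM in control, 345, 367 and 401 CPM in CM and 775, 465 and 604 CPM in CM plus DTM (0.84, SE 0.19, adjusted p = 0.058). Control and CM overlapped, and all 3 CM plus DTM libraries were above both. Rps2, a small-subunit protein at the mRNA entry channel, measured 1256, 1057 and 1129 CPM in control and 1911, 1690 and 1879 CPM in CM plus DTM (0.67). For Rpl3 the layout was the reverse of that of Rpl27: its 690, 990 and 1016 CPM in CM plus DTM overlapped its control values (-0.04) and were above all CM values by 0.52. Rpl14, at 572, 460 and 386 CPM in control and 372, 480 and 456 in CM plus DTM, overlapped control as well (-0.12).

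The P stalk, which recruits translation factors to the ribosome, is built from Rplp0, Rplp1 and Rplp2. Rplp0, its base, measured 1957, 1597 and 1502 CPM in control, 1797, 1482 and 1652 in CM and 2071, 2178 and 2251 in CM plus DTM. Rplp1 measured 1435, 1165 and 796 CPM in control, 816, 942 and 1112 in CM and 2251, 1379 and 1575 in CM plus DTM. Rplp2 measured 543, 424 and 279 CPM in control, 327, 301 and 319 in CM and 873, 465 and 590 in CM plus DTM. All 3 were higher in every CM plus DTM library than in every CM library. The fold changes were 0.40 for Rplp0 (SE 0.17, adjusted p = 0.158), 0.86 for Rplp1 (SE 0.27, adjusted p = 0.0847) and 1.03 for Rplp2 (SE 0.28, adjusted p = 0.069).

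Rps6, the small-subunit protein phosphorylated by S6 kinases downstream of mTORC1, had one of the tighter profiles. It measured 911, 828 and 927 CPM in control, 850, 740 and 751 in CM and 1074, 1076 and 1154 in CM plus DTM (0.50 over CM, SE 0.14, adjusted p = 0.072). Every CM plus DTM library was above all others, while CM 1 lay within the control range. The counts measure its message and not its phosphorylation.

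Members with described roles in immunity were close to the family's median. Rps3, which also acts with NF-kappa B, measured 874, 723 and 534 CPM in control, 570, 648 and 592 in CM and 946, 891 and 952 in CM plus DTM (0.62 over CM, adjusted p = 0.0807). Rpl13a, which in human myeloid cells represses translation of inflammatory messages after interferon gamma, measured 491, 437 and 372 CPM in control, 385, 398 and 411 in CM and 589, 569 and 639 in CM plus DTM (0.59 over CM, SE 0.15, adjusted p = 0.0619). For both, every CM plus DTM library was above all other libraries.

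Rpl5, Rpl11 and Rpl23 bind Mdm2 when ribosome assembly is disturbed. Rpl11 measured 597, 527 and 423 CPM in control, 351, 390 and 414 in CM and 752, 613 and 684 in CM plus DTM (0.83 over CM, SE 0.17, adjusted p = 0.0611). Rpl5, its partner, measured 758, 756 and 700 CPM in control, 765, 641 and 638 in CM and 757, 782 and 891 in CM plus DTM (0.25 over CM, adjusted p = 0.299). Rpl23 measured 402, 430 and 382 CPM in control, 506, 427 and 396 in CM and 875, 499 and 654 in CM plus DTM (0.61 over CM). Rpl11 separated all 3 groups from one another, while Rpl5 overlapped in every comparison and Rpl23 only stood above control in CM plus DTM.

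Of genes mutated in human Diamond-Blackfan anaemia, Rps19 measured 570, 485 and 279 CPM in control, 310, 329 and 297 in CM and 729, 520 and 652 in CM plus DTM (1.02 over CM). The fold change over CM was 0.59 for Rps24, 0.74 for Rps26 and 0.55 for Rpl35a. All 4 were higher in every CM plus DTM library than in every CM library. Only Rpl35a of these 4 was also lower in every CM library than in every control library, at 449, 407 and 328 CPM in control and 311, 308 and 294 in CM.

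Of the 15 paralogs and look-alikes, 13 were tested, and their median fold changes were -0.11 between CM and control, 1.25 between CM plus DTM and CM, and 0.85 between CM plus DTM and control. The core medians, listed in the same order of comparisons, were -0.23, 0.74 and 0.51. No test of the difference between these classes was made, and the levels of most of these 15 genes were low. Rps27l, a paralog of Rps27 known in mouse as a p53 target, measured 127, 105 and 109 CPM in control, 69.2, 96.9 and 88.3 in CM and 456, 172 and 195 in CM plus DTM. Its 3 groups did not overlap in any comparison, with fold changes of -0.42, 1.69 (SE 0.35, adjusted p = 0.0611) and 1.27 (SE 0.35, adjusted p = 0.0847). Without CM plus DTM 1 the difference from CM was 1.06 and that from control 0.67. Rpl22l1, at 50.4, 36.7 and 61.5 CPM in CM plus DTM, was above all its CM libraries by 1.62 (SE 0.32, adjusted p = 0.0611). Rps19bp1, a binding partner of Rps19 and not a subunit, measured 19.4, 23.4 and 27.7 CPM in CM and 55.6, 30.2 and 31.6 in CM plus DTM (0.74, adjusted p = 0.123). Rpl7l1, known as an assembly factor related to Rpl7, measured 103, 159 and 145 CPM in CM and 138, 161 and 152 in CM plus DTM (0.15), with no separation.

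Relative to their parent gene, counted per kb of transcript, the paralogs behaved differently from one another. Rpl22l1 stood at 83.5%, 115% and 69.0% of Rpl22 in control, 72.5%, 81.0% and 53.4% in CM and 66.6%, 106% and 138% in CM plus DTM, with all groups overlapping. Rps27l stood at 24.3%, 23.8% and 39.6% of Rps27 in control, 17.1%, 27.7% and 27.6% in CM and 39.6%, 35.1% and 32.2% in CM plus DTM. Rpl36al, an intronless paralog, stood at 38.1%, 44.7% and 45.4% of Rpl36a in control, 59.0%, 58.1% and 51.3% in CM and 31.1%, 49.1% and 42.7% in CM plus DTM. That ratio was higher in every CM library than in all others. So was that of Rps4l to Rps4x, at 1.70%, 1.51% and 2.13% in CM against 1.05% to 1.39% elsewhere. Rps4l is annotated as a processed pseudogene. The size of these percents rests on the annotated transcripts used, while their order between libraries does not. Rpl22 is annotated at 2051 bases and Rpl22l1 at 552, and Rpl36a at 483 and Rpl36al at 1276. Per kb of coding sequence, the control means in CPM of total counts were 88.9 for Rpl22l1 and 348 for Rpl22. They were 519 for Rpl36al and 465 for Rpl36a, so on that scale Rpl36al stood above its parent. Rpl3l, known as the muscle form of Rpl3, was near 0 throughout, at 0.122 to 0.336 CPM, and Rpl39l, known from male germ cells, was at 1.01 to 15.6 CPM.

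Some of these rows share much of their sequence with their parent, so short reads can tell them apart only in part. Of the 31-base words in the annotated transcript, 90.4% of those of Rps27rt also occur in Rps27, 84.8% of Rps3a2 and 67.2% of Rps3a3 in Rps3a1, 72.2% of Rpl6l in Rpl6 and 43.4% of Rpl37rt in Rpl37. Their counts are therefore uncertain. Between CM plus DTM and CM the fold changes of these near copies were 1.77 for Rps3a3, 1.60 for Rpl6l and 1.49 for Rpl37rt, and without CM plus DTM 1 they were 1.09, 0.78 and 0.66. For Rps3a2 the CM and CM plus DTM groups overlapped. For Rpl22l1, Rps27l, Rpl36al and Rpl3l the share of words found in the parent was 0.0%, and for Rpl39l and Rps4l it was 1.0% and 0.9%. Rps27rt had the largest fold change over CM of all members, 2.63 (SE 0.66, adjusted p = 0.0615), from 1.90, 1.57 and 0.885 CPM in CM to 18.9, 3.59 and 4.58 CPM in CM plus DTM, and 1.44 without CM plus DTM 1. Relative to Rps27 it stood at 2.52% in CM plus DTM 1 and 1.1% and 1.2% in the other CM plus DTM libraries, against 0.426% to 0.718% in the 6 other libraries. Rpl6l was likewise highest in CM plus DTM 1, at 7.38% of Rpl6 against 1.81% to 3.04% in the other 8 libraries.

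**Figure D4:**
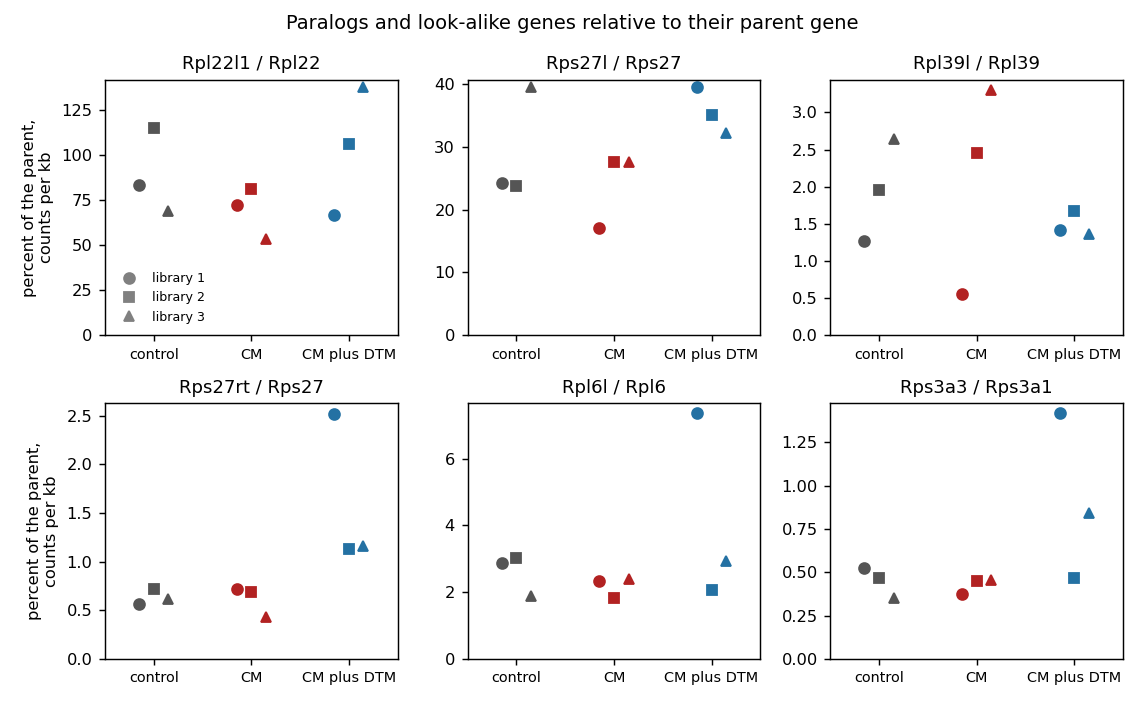
Level of 6 paralogs or look-alike genes as a percent of the parent gene, in counts per kb of transcript, with each library as a point (circle, square and triangle for libraries 1, 2 and 3). The near copies in the lower row (Rps27rt, Rpl6l, Rps3a3) are highest in CM plus DTM 1, while Rpl22l1 overlaps between all groups. The size of each percent rests on the annotated transcript lengths used.

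Levels of different members were compared only per length, as CPM of total counts divided by the transcript length in kb. In control the highest values on this scale were Rplp1 at 2494 ± 602, Rps15 at 1690 ± 70.4, Rplp0 at 1369 ± 115, Rps4x at 1325 ± 158 and Rps2 at 1318 ± 45.0 (SD, n = 3). Rplp0, Rps4x and Rps2 differed by less than the spread of Rplp0 and Rps4x. The median core gene was at 683 in control, 487 in CM and 774 in CM plus DTM. The lowest core gene was Rpl22 at 65.2 ± 10.5, 38.3-fold under Rplp1. The next lowest were Rps15a at 76.6, Rps20 at 97.9 and Rpl18 at 116, whose annotated transcripts are long (5179, 3706 and 2989 bases). Per kb of coding sequence Rpl22 was again the lowest and Rpl18 the fourth lowest, while Rps15a and Rps20 ranked 33 and 32 of 77, so their low level rests on the transcript length used. By the rule over all 92 members, the 5 lowest were Rpl10l, Rps12l1, Rpl3l, Rps3a3 and Rps27rt.

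Ribosomal protein messages are short, and other short messages moved in the same direction. The length bands were chosen after the data had been seen. Among core genes under 700 bases, the median fold change of CM plus DTM against CM was 0.84 (n = 24), beside 0.75 for 272 other protein-coding genes of that length. From 700 to under 1500 bases it was 0.74 (n = 42) beside 0.44 (n = 1775), and from 1500 bases on it was 0.61 (n = 11) beside -0.16 (n = 10634). The share of genes for which every CM plus DTM library was above every CM library was 95.8% of core genes and 46.0% of others in the shortest band, 88.1% and 38.0% in the middle band and 63.6% and 10.1% in the longest. Core and other genes thus had like medians when short, and the share free of overlap was higher among core genes in each band. The longest core band holds Rps15a, Rps20 and Rpl18, with coding sequences of 390, 357 and 564 bases. Their place in it rests on the annotated transcripts used (5179, 3706 and 2989 bases).

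In single libraries the short core genes stood at 0.88, 0.27 and 0.50 relative to control in CM plus DTM 1, 2 and 3, beside 0.91, 0.21 and 0.46 for other short genes. For CM against control the medians under 700 bases were -0.29 for core genes and -0.14 for others, and from 1500 bases on they were -0.17 and 0.02. Within the family, annotated length and fold change were only weakly related, with Pearson r of 0.175, -0.130 and -0.041 over 77 core genes for the 3 comparisons. The limit on annotated lengths given above holds here too. Genes are not independent replicates, and these values are a description. Transcript length and library moved together, and the part of length in the family's difference was not tested.

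**Figure D5:**
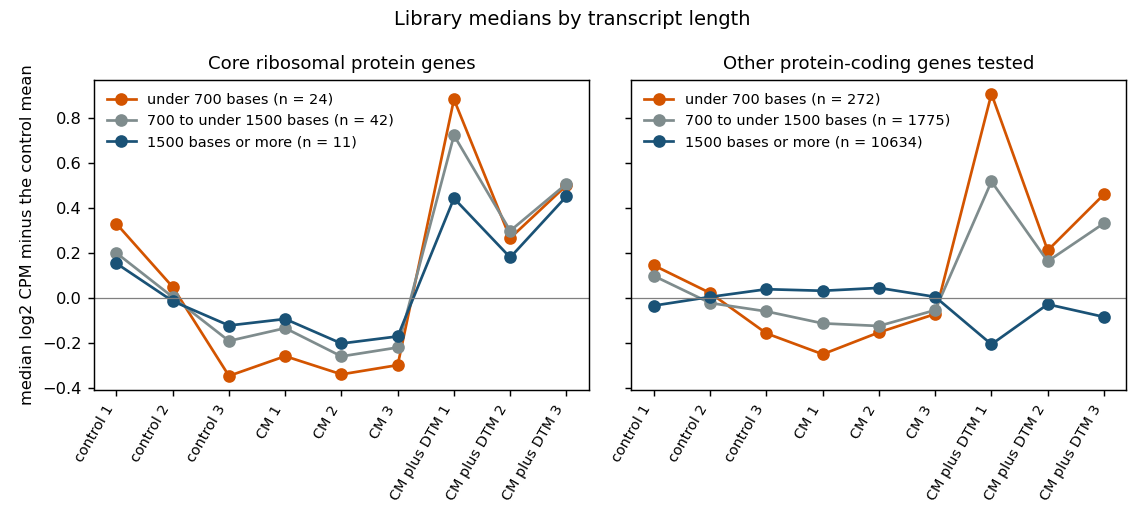
Median log2 CPM minus the control mean in each library, for core ribosomal protein genes (left) and other protein-coding genes tested (right), in 3 bands of transcript length. In CM plus DTM 1 the shortest band stands at 0.88 for core genes and 0.91 for other genes, while the longest band stands at 0.44 and -0.21.

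Core genes with and without the pyrimidine run printed above had like fold changes. A missing run depends on the annotated start, so this split does not sort the messages by TOP motif, and the motif's part was not tested. The median fold change of CM plus DTM against CM was 0.69 for the 27 core genes with a run, 0.80 for the 30 without one and 0.76 for the 20 without an entry. Between CM and control these medians were -0.20, -0.24 and -0.23, and between CM plus DTM and control they were 0.47, 0.53 and 0.52.

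The genes most like the family were sought among 6391 other genes averaging 20 CPM or more, by the correlation of their log2 CPM over the 9 libraries with the median profile of the core genes. The closest were Rack1 (Pearson r = 0.990) and Fau (0.989), both of which encode ribosomal subunits under names that the rule does not catch. Rack1 measured 1174, 1004 and 846 CPM in control, 935, 840 and 888 in CM and 2041, 1365 and 1627 in CM plus DTM (0.92 over CM, SE 0.20, adjusted p = 0.0611). They were followed by Atp5g2 (0.987), a subunit of the mitochondrial ATP synthase, Abhd17a (0.985), a depalmitoylating enzyme, Dhps (0.985), which begins the hypusine modification of eIF5A, Mrps16 (0.983), of the mitochondrial ribosome, Dctn3 (0.980), of dynactin, and Yif1a (0.978), of the early secretory pathway. In all, 306 genes had r above 0.9, and the likeness says nothing of shared control.

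Core genes themselves had a median r of 0.936 with this profile, of which each is a part. The highest r was 0.99, and the lowest were those of Rpl29 at -0.56 and Rpsa at -0.24. For both, as given above, CM plus DTM 1 lay far under the other CM plus DTM libraries.

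The mitochondrial ribosomal proteins moved in the same direction as the cytosolic ones. Of 83 genes, 81 were tested, with medians of -0.15, 0.55 and 0.41 for the 3 comparisons in the order used above. Every CM plus DTM library was above every CM library for 57 of them, where 16.7% of all genes showed this. Only Mrpl30 was called, higher in CM plus DTM than in control by 1.02 (SE 0.20, adjusted p = 0.0352), where 2.45% of all genes were called. Their share of counts was 0.314% in control, 0.245% in CM and 0.351% in CM plus DTM.

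The other lists of translation genes are given by their medians in the same order of comparisons, and no difference between lists was tested. Between CM and control 5.61% of all genes were called, the background for the counts that follow. The 20 other TOP messages, among them elongation factors, had medians of -0.18, 0.41 and 0.27 with 0 called; Eef1a1, which brings aminoacyl-tRNA to the ribosome, differed by 0.25 between CM plus DTM and CM (adjusted p = 0.418) and Eef2, the translocation factor, by -0.33 (adjusted p = 0.421). The 67 ribosome assembly factors had medians of -0.18, 0.06 and 0.09, and only Mphosph10, a factor of small-subunit assembly, was called, 0.98 higher in CM than in control (adjusted p = 0.038). The 21 genes of RNA polymerase I and its factors had medians of -0.21, -0.01 and 0.11 with 0 called. For 39 initiation factors the medians were -0.01, 0.24 and 0.24, with Eif2s2, the beta subunit of eIF2, called 1.09 higher in CM than in control (adjusted p = 0.0105). The 13 elongation and termination factors had medians of -0.04, 0.48 and 0.31 with 0 called. Among 20 ribosome-associated genes only Ascc3, which splits stalled ribosomes, was called, 1.46 higher in CM than in control (adjusted p = 0.00679), with medians of -0.18, -0.02 and 0.08.

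The 42 genes of mTORC1 and eIF2 alpha signalling had medians of 0.19, -0.32 and 0.06 in the same order, with 0 called between CM plus DTM and CM. Against control, 4 rose and 1 fell in CM, where 5.61% of all genes were called. The stress factor Atf5 measured 53.6 ± 6.25 CPM in control, 170 ± 14.2 in CM and 85.4 ± 1.71 in CM plus DTM (SD, n = 3), higher in CM by 1.67 (adjusted p = 0.000894) and in CM plus DTM by 0.67 (adjusted p = 0.0478) than in control. Ddit3, the pro-apoptotic factor CHOP, measured 14.5, 12.7 and 12.7 CPM in control and 203, 41.1 and 44.2 in CM, where CM 1 stood far above the others (log2 fold change 2.86, adjusted p = 0.0336, and 1.68 without CM 1). Rragd, a Rag GTPase that activates mTORC1 at the lysosome, measured 2.73, 4.46 and 4.01 CPM in control and 18.7, 14.0 and 12.4 in CM, higher by 2.01. Eif2ak2, the RNA-sensing kinase PKR, was at 10.6 ± 2.34 and 37.0 ± 5.02 CPM (SD, n = 3), higher by 1.80. The 1 that fell, Rragb, another Rag GTPase, was at 1.39 ± 0.284 CPM in control and 0.448 ± 0.114 in CM (SD, n = 3; log2 fold change -1.62, adjusted p = 0.0455). Rptor, the scaffold subunit of mTORC1, was 1.24 lower in CM plus DTM than in control (log2 fold change -1.24, adjusted p = 0.0375). It measured 107 ± 22.3 CPM in control, 59.8 ± 3.68 in CM and 45.0 ± 13.8 in CM plus DTM (SD, n = 3). Its mean was thus already low in CM without DTM, and the CM and CM plus DTM libraries overlapped. With each of the 9 libraries left out in turn, Atf5 (in CM), Rragd, Eif2ak2 and Ascc3 stayed called in every fit. The other calls named for these lists, that of Mrpl30 and that of Atf5 in CM plus DTM included, were lost in 2 to 8 of those 9 fits, without a change of sign.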

How the data were processed

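Per the labels' protocols, RNA was taken up in TRIzol, made into libraries with an mRNA kit and run on the DNBSEQ-T7 platform. The authors deposited unnormalized counts of reads for each gene symbol and library (9 libraries). Tools listed in the submitters' processing notes are HISAT2 2.1.0, Trimmomatic 0.36, DESeq2 1.12.4 and FastQC 0.11.2, beside the builds mm39 and GRCh38, whose role is left unsaid. How reads were counted, with which annotation and strand setting, is not given in the sources used here, and near copies and overlapping genes are therefore uncertain. The table had 0 columns without a sample and 0 rows without a name.

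Counts were filtered by edgeR's filterByExpr and scaled by TMM. The main test was edgeR 4.0.16 under R 4.3.3 (glmQLFit at the package default, then glmQLFTest) on 1 fit of all 9 libraries, with Benjamini-Hochberg adjustment over 15429 genes and a threshold of 0.05. An SE is the log2 fold change over the root of its F statistic. The test was checked on simulated counts with known changes. For the 3 comparisons in the order used above, it called 16%, 24% and 20% of genes given a log2 change of 1. Of genes given a change of 2 it called 89%, 84% and 91%. The changed genes were drawn at random, their spread followed the trend over all genes, and no other gene changed. These percents therefore do not measure what share of changes in the members would be missed. Shares, ratios and correlations with the family profile were computed without a test. For shares and ratios, 3 against 3 libraries could not go below an exact p of 0.10. The correlations, over all 9 libraries, are a description. Log2 CPM used a prior count of 2. Transcript lengths came from GENCODE vM21 (GRCm38), for the coding transcript with the longest coding sequence, and matched 92 of 92 members. Promoters came from RefSeq on GRCm38.p6. Depth ran from 43084296 to 50407973 counts per library.

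Members, gene lists and tests were chosen with earlier results of these data known, and 5 look-alike names (Rpl37rt, Rpl6l, Rps3a2, Rps3a3 and Rps12l1) were classed after the table's names had been seen. Named members were those called (or up to 12 a direction), the 5 highest and 5 lowest fold changes with a mean of at least 5 CPM in each comparison, members fixed by role, every paralog or look-alike with a count, and the 5 highest and lowest per length. Members described beyond that rule (Rpl6, Rpl10a, Rpl22 and those listed for overlap) were chosen after their values were seen. Some genes that the rule or a count would name are not reported here, and counts, medians and shares include them. Alternatives were DESeq2 1.42.0, limma-voom (limma 3.58.1), other scaling and filters, fits limited to both groups of a comparison, a block for library number, legacy = FALSE, "-ps" rows added to their parents, and libraries left out.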

Additional observations from a re-analysis of the deposited data

Results flagged for a closer look

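The rows whose names contain "-ps", mostly processed pseudogenes of ribosomal proteins, lie outside the name rule and were above their level in control in 2 libraries. They held 0.0701%, 0.0684% and 0.0444% of counts in the control libraries and 0.0444%, 0.0359% and 0.0436% in CM, against 0.2003% in CM plus DTM 1, 0.0663% in CM plus DTM 2 and 0.1037% in CM plus DTM 3. Reads of such copies can come from the parent message, and the counting step is not given in the sources used here. Rps16-ps2, for example, measured 21.1, 16.4 and 10.4 CPM in control, 10.9, 7.78 and 8.72 in CM and 81.5, 16.6 and 26.3 in CM plus DTM.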

How the results depend on the processing

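Under 21 settings, values of the named members newly passed the threshold in 84 cases, crossed 0 by more than 1 SE without a call in 10, and in the other 2541 stayed on their side of the threshold with the same sign or a change of sign within 1 SE. The number of members called was 0 in each comparison under limma-voom, median-of-ratios scaling, TMM without the members, no filter, fits of the compared groups only and legacy = FALSE, which called 2.66% to 9.05% of all genes for CM against control, 0.0% to 0.0389% for CM plus DTM against CM and 0.791% to 3.02% for CM plus DTM against control. For CM against control, total counts called 3 with a median of -0.40, and leaving out CM 1 and CM plus DTM 1 called 1; leaving out single libraries called 0, with medians from -0.34 to -0.10. For CM plus DTM against CM, DESeq2 called 62, the 5 CPM filter 33, the fit without CM 1 and CM plus DTM 1 called 13 (median 0.58), and leaving out single libraries called 0 to 57, with medians from 0.57 to 0.90. For CM plus DTM against control, DESeq2 called 13, the 5 CPM filter 1 (Rpl27), the fit without those 2 libraries 5 (Rpl15, Rpl27, Rpl6, Rps2 and Rps27l), and leaving out single libraries 0 to 26; the median on total counts was 0.27. With TMM, the family's mean share was 4.33% in control and 5.99% in CM plus DTM. The cause of these changes was not tested.

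Library numbers do not pair the samples by the labels, and the correlations of same-numbered deviations ran from -0.044 to 0.297. With the numbers as a block, 0 members were called in each comparison and the medians were -0.20, 0.75 and 0.54. With 3 libraries a group, of which CM plus DTM 1 stands apart, a p above the threshold does not show that a subunit did not differ.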
